A study of Mus musculus with 11 samples.

Results

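The cytosolic ribosomal protein genes were taken as every gene row whose symbol is Rpl or Rps followed by a number and at most one of the letters a, x, l or y, together with Rplp0, Rplp1 and Rplp2. This rule found 80 of the 36529 genes listed, 50 of the large and 30 of the small ribosomal subunit, and it used no measured value. Reads per gene were counted in 11 RNA-seq samples of BV2 cells, an immortalised mouse microglial line of C57BL/6 origin. In one experiment 3 samples received nApoE4, the amino-terminal fragment of apolipoprotein E4 spanning residues 1 to 151, and 3 samples were its controls (ControlA). In a second experiment 2 samples received the same stretch of apolipoprotein E3 (nApoE3) and 3 samples were its controls (ControlB). Both fragments carried a His tag, differed from each other in a single residue and were given at 25 µg/ml for 5 h. The labels call the controls untreated and name PBS as the vehicle, while the methods describe fragments diluted into conditioned medium, so what the controls received is uncertain. Each fragment was run in its own experiment, so fragment and experiment cannot be told apart. The labels do not say that samples of a group were separate cultures, and p-values therefore measure only the spread between these samples.

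Ribosomal proteins coat the ribosomal RNA and are needed in equal numbers, apart from the stalk proteins P1 and P2, of which each ribosome holds more copies. Their mRNAs usually begin with a run of pyrimidines, the 5′ terminal oligopyrimidine (TOP) tract, through which mTORC1 and the RNA-binding protein LARP1 control their translation. Because translation of these mRNAs can change without any change in their amount, the read counts describe mRNA level and not protein output. A few members have a close relative that is made mainly in one tissue, such as Rpl3l of striated muscle and Rpl39l of the testis.

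To look for a pyrimidine run at the start of the members, the RefSeq promoter table (GRCm38.p6, 250 bases before to 50 after each start) was searched for the letters CTTTCC. It held an entry for 60 of the 80 members. CTTTCC was present on the gene strand in 24 of those 60 promoters (40.0%) and in 4328 of all 27025 promoters in the table, and on either strand in 51.7% and 29.3%. CCGGAAG, the core letters bound by ETS family factors, was present on either strand in 40.0% of the members' promoters and 9.93% of all promoters. TATAAA was present on either strand in 11.7% and 15.7%. The windows below are examples in which CTTTCC, in capitals, begins within 6 bases of the start site. Rpl18, Rpl35 and Rps10 also met this rule and are not shown. In Rpl39l the letters begin 6 bases before the start site and so lie upstream of it. In the other windows shown they begin at or after it. Rpl39l is among them because it was the member called higher with both fragments.
Rpl15: aaagccttcttcCTTTCCtctggcggcagc
Rpl28: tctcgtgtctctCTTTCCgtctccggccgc
Rpl35a: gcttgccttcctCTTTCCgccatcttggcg
Rpl38: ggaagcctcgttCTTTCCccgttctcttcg
Rps27: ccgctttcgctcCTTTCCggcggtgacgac
Rpl39l: tagctcccaggcCTTTCCggatttccggtg
These windows read 5′ to 3′ on the gene strand. They lie at chr14:18270965-18270994 (minus strand) for Rpl15, chr7:4792955-4792984 (plus) for Rpl28, chr16:33056472-33056501 (plus) for Rpl35a, chr11:114668568-114668597 (plus) for Rpl38, chr3:90213630-90213659 (minus) for Rps27 and chr16:10170210-10170239 (plus) for Rpl39l. A match describes the letters of the window only.

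Genes were counted to a depth of 39732710 to 44162511 reads per sample in the nApoE4 experiment and 55809688 to 69768666 in the nApoE3 experiment. Reads that aligned to more than one place made up 11.7% to 13.2% of each library's tally and were not given to any gene. Of 13 markers of microglia and macrophages, 9 or 10 exceeded 1 CPM (counts scaled to library size) in each group, led by Cd68 and Csf1r, whereas P2ry12 was at 0 in every sample and Aif1 and Cx3cr1 stayed under 1 CPM. Among defining markers of other cell types, Mog, Mobp and Cldn5 were at 0 in every sample. In bulk RNA, fewer cells and less RNA per cell cannot be told apart.

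Of the 80 members, 78 had at least 1 read and 72 had a mean count of 1000 or more. Rpl10l and Rpl32l were at 0 in every sample, and Rpl32l is annotated as a processed pseudogene. The remaining 6 were Rpl10a, Rps10, Rps18 and Rps28, which encode core ribosomal proteins, and the relatives Rpl3l and Rpl39l. The first 4 of these stood between 0.420 and 5.33 CPM per kb of exon over all samples and lie on chromosome 17. Each shares exon bases with another annotated gene, most for Rps10 (28.7%). Such sharing was found in 36 of the 80 members, including Rpl35 (66.2%, at 572.1 CPM per kb) and Rpl23a (62.3%, at 761.9 CPM per kb). Why the counts of these 4 genes are low was not tested, and the counts are uncertain. The members took 6.87%, 7.87% and 6.19% of all counted reads in ControlA and 6.74%, 6.30% and 6.91% with nApoE4. They took 4.48%, 4.40% and 4.57% in ControlB and 4.39% and 4.27% with nApoE3. The samples of the first experiment thus lay above those of the second without overlap, while nApoE4 lay within the range of ControlA and nApoE3 lay just below ControlB.

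**Figure D1:**
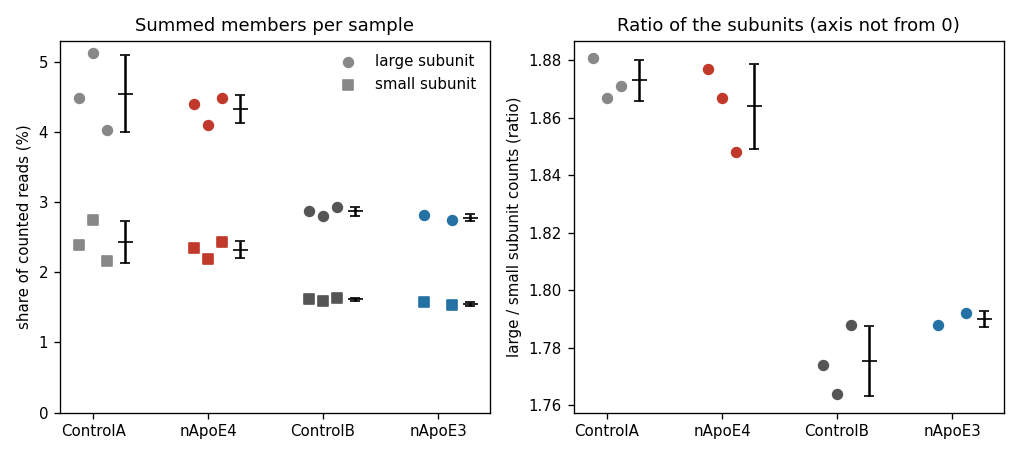
Left, percent of each sample's counted reads on the summed large subunit (circles) and small subunit (squares) genes; right, the ratio of these sums on an axis that does not start at 0. Black marks are the group mean ± SD. ControlA and nApoE4 lie above ControlB and nApoE3 in both panels.

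The large subunit genes together drew more reads than the small subunit genes in every sample, and the ratio was steady within an experiment. It was 1.87 ± 0.0072 (SD, n = 3) in ControlA and 1.86 ± 0.015 (n = 3) with nApoE4. It was 1.78 ± 0.012 (n = 3) in ControlB and 1.79 ± 0.0028 (n = 2) with nApoE3. Within ControlA, replicate 2 held the highest CPM of its group for 77 of the 78 detected members. The median coefficient of variation over the 72 abundant members was 12.7% in ControlA against 5.20% with nApoE4, 2.62% in ControlB and 1.90% with nApoE3. The members were therefore measured least precisely in ControlA.

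Per kilobase of exon, the stalk genes Rplp1 and Rplp0 stood highest and the third, Rplp2, at rank 51 with 294.5 CPM per kb. The length used is that of all annotated exons together, 499 bases for Rplp1 and 2072 for Rplp2, so these ranks depend on the annotation. Before division by length, Rplp1 averaged 1357 CPM and Rplp2 610.1 CPM. Rplp1, an acidic stalk protein, averaged 2719 CPM per kb over all samples, Rplp0, the base of the stalk, 1600, and the large subunit protein Rpl8 1292. Rpl19 followed at 1111 and Rps29, a small zinc-binding protein of the small subunit, at 1099. The members were short genes, with a median summed exon length of 1736.5 bases against 3498 for all protein-coding genes in GENCODE M21. A small nucleolar RNA gene lay on the same strand within 28 of the 80, compared with 1.18% of protein-coding genes.

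With nApoE4 the ribosomal protein genes moved little as a family. Of 78 members tested, 1 was higher and 1 lower at an adjusted p under 0.05 (edgeR quasi-likelihood test, Benjamini-Hochberg over all genes), whereas 28.6% of all 14240 genes tested were higher and 28.6% lower. The member called higher was Rpl39l and the member called lower was Rpl3l. The median log2 fold change was 0.0077 over the large subunit and 0.026 over the small subunit genes, beside 0.0013 over all genes tested. At an adjusted p under 0.05 and over 2-fold, 17.7% of all genes were called, and Rpl39l was the member that passed. Without ControlA replicate 2, the library with the highest member levels, 18 members were higher and 1 lower, with medians of 0.13 and 0.15, and 60.6% of all 14561 genes were called. Rpl24, Rps15a and Rpl3 were among the 18, at log2 0.27, 0.26 and 0.24. Without ControlA replicate 3, the ControlA library with the lowest share on the members, the medians moved the other way, to -0.092 and -0.065. In that fit 1 member was higher and 1 lower, 11 of 78 lay above the median of all genes, and 55.7% of all 14511 genes were called.

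With nApoE3 more members passed the test, by small amounts, and the direction depended on how libraries were scaled. With TMM scaling 45 of 78 members were higher and 4 lower, beside 33.1% and 34.6% of all 14817 genes tested. The median log2 fold change was 0.085 for the large and 0.068 for the small subunit, beside -0.0026 for all genes. Over 2-fold, 16.2% of all genes were called, and Rpl39l was again the member that passed. With library totals alone, 10 members were higher and 34 lower, and with upper-quartile factors 32 and 9. Of all genes tested, 70% and 68% were called under these scalings. Library totals moved the median of all genes to -0.13. A change of scaling shifts every gene by nearly the same amount, so it could not alter the members' place relative to all genes. With TMM and with library totals alike, the members' median lay 0.087 above that of all genes, with 60 of 78 members above it. With all 11 samples in a single fit, which uses a shared estimate of spread, 5 members were higher and 1 lower. In that fit 54.5% of all 15287 genes were called.

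**Figure D2:**
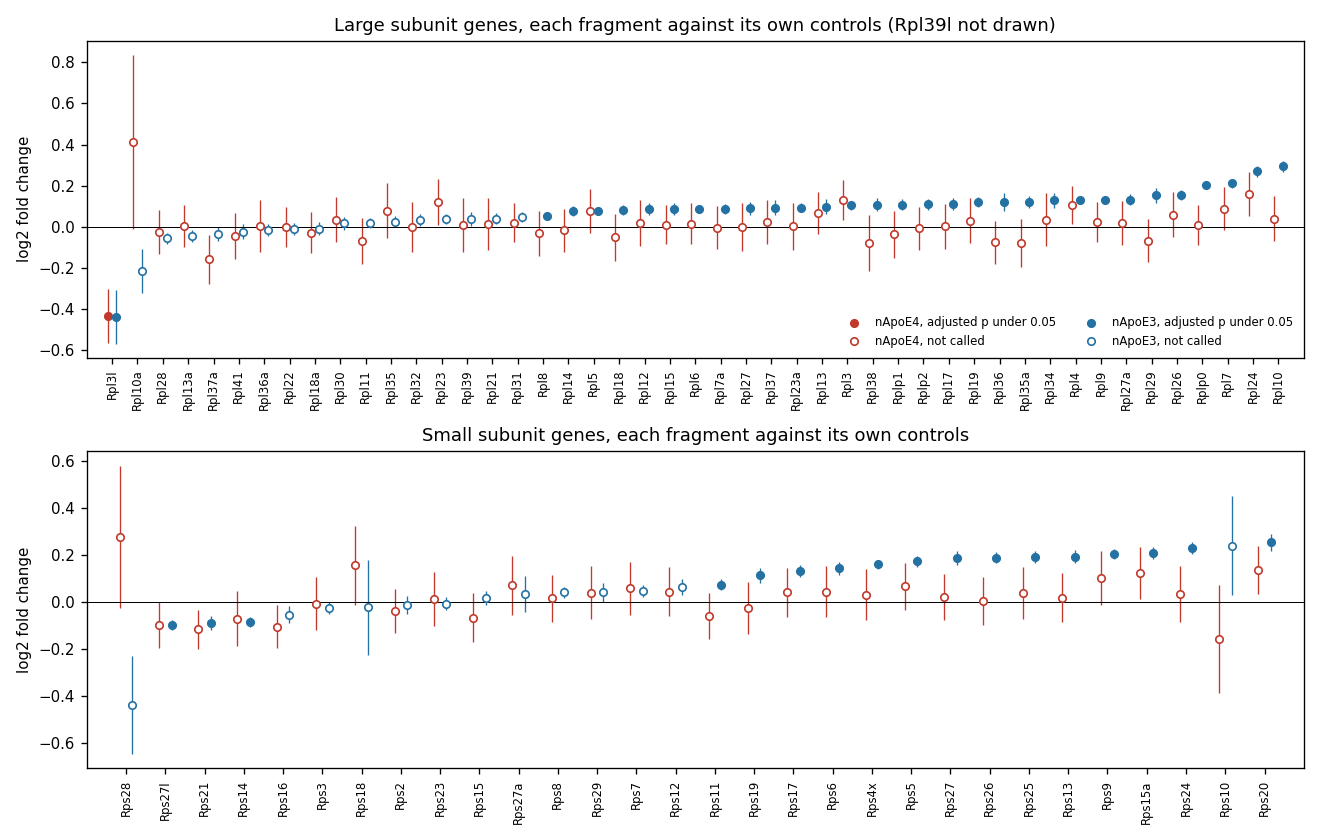
Log2 fold change (y axis, TMM scaling) of each tested member with nApoE4 (red) and nApoE3 (blue) against its own controls, ± SE, with members ordered by the nApoE3 value. Filled points passed an adjusted p under 0.05; apart from Rpl39l, which is not drawn, 1 red point is filled, and most blue points lie slightly above 0.

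**Figure D3:**
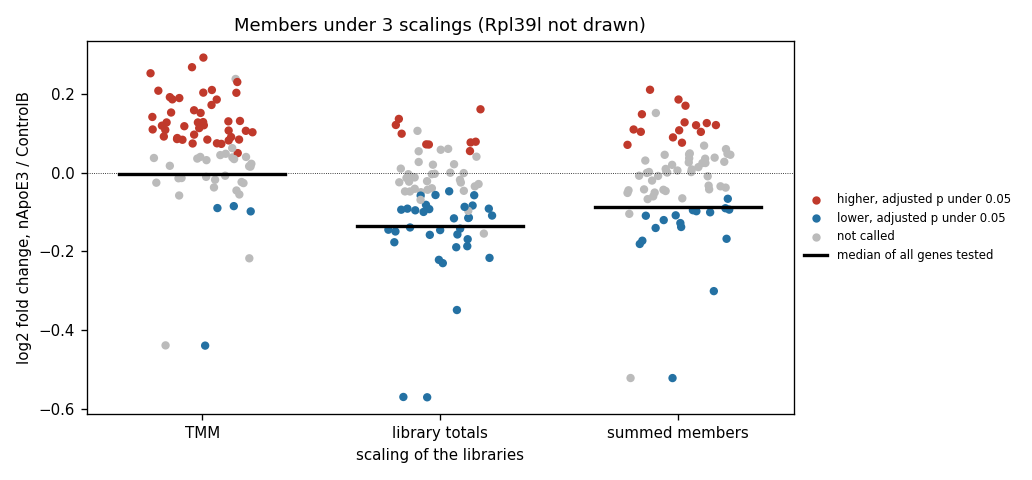
Log2 fold change of each member between nApoE3 and ControlB (y axis) with libraries scaled by TMM, by library totals and by the summed members (x axis). The black line is the median of all genes tested. The count called higher goes from 45 to 10 to 16. Of all genes tested, 67.7%, 70% and 66.2% were called in either direction. Scaling shifts the members and the line by nearly the same amount, so their relative place cannot differ between columns.

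The largest called rises with nApoE3 other than Rpl39l were in Rpl10, Rpl24, Rps20 and Rps24. Rpl10, which joins the large subunit late in its assembly, stood at 571, 538 and 572 CPM of the library total in ControlB and at 622 and 632 CPM with nApoE3. The groups did not overlap, as was so for 11493 of all 14817 genes tested and 49 of 78 members with nApoE3 on the TMM scale. The log2 fold change of Rpl10 was 0.29 ± 0.027 with TMM scaling (SE, adjusted p = 9.37e-07, edgeR) and 0.16 with library totals. Its values were 1395, 1659 and 1287 CPM in ControlA and 1443, 1332 and 1423 CPM with nApoE4, which overlapped (0.039 ± 0.11, adjusted p = 0.789, edgeR).

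Rpl24, a large subunit protein at the subunit interface, stood at 332, 327 and 345 CPM in ControlB and 366.9 and 368.8 CPM with nApoE3, without overlap. Its log2 fold change was 0.27 ± 0.026 with TMM scaling and 0.14 with library totals. Many exon bases of Rpl24 are shared in the annotation with Gm28037, so its count is uncertain. Rps20 stood at 212, 210 and 228 CPM in ControlB and 240 and 232 CPM with nApoE3 (log2 0.25 ± 0.036). Rps24 stood at 558, 549 and 582 CPM and at 599 and 607 CPM (0.23 ± 0.026). Both small subunit genes were higher in each treated sample than in any control of their experiment. With library totals, the scale of these CPM, the log2 values were 0.12 for Rps20 and 0.10 for Rps24.

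With TMM scaling each of the stalk genes lay above the member median of 0.085 with nApoE3, and Rplp0 lay furthest above it. Rplp0 stood at 1810, 1771 and 1837 CPM in ControlB and 1920 and 1878 CPM with nApoE3, and its log2 fold change was 0.20 ± 0.020, or 0.073 with library totals. Relative to the summed members it was higher by 0.12 (adjusted p = 1.12e-04, edgeR). Rplp1 and Rplp2 were called higher as well, at 0.11 ± 0.028 and 0.11 ± 0.028, but their CPM of the library total overlapped the controls and their sign turned with library totals. With nApoE4 the values were 0.0072 for Rplp0, -0.038 for Rplp1 and -0.0086 for Rplp2, none called.

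Rpl3l was called lower with each fragment, but not under every alternative. This relative of Rpl3 stood at 5.84, 6.84 and 5.74 CPM in ControlA and at 4.37, 3.77 and 4.67 CPM with nApoE4. It stood at 3.02, 3.62 and 3.46 CPM in ControlB and 2.16 and 2.37 CPM with nApoE3. Neither pair of groups overlapped, as was so for 9063 of 14240 genes tested with nApoE4 and 11493 of 14817 with nApoE3 on the TMM scale. The log2 fold changes of Rpl3l with that scaling were -0.44 ± 0.13 (adjusted p = 0.0181) and -0.44 ± 0.13 (adjusted p = 0.010), both by edgeR. With library totals the nApoE3 value was -0.57. The nApoE4 call was lost without nApoE4 replicate 2 (adjusted p = 0.0648) and with the replicate block (0.0560), and the nApoE3 call without nApoE3 replicate 1 (0.0774), all by edgeR. Rpl3 itself, at 1166 to 1225 CPM in the second experiment, had log2 values of 0.13 ± 0.097 (not called) and 0.10 ± 0.022 (called, but -0.028 with library totals). Rpl3l lies at chr17:24727820-24736143 on the plus strand (GRCm38).

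Rpl39l was the member with the largest change, at very low counts. It had 0 reads in each ControlA sample and 13, 13 and 16 reads with nApoE4. It had 10, 4 and 6 reads in ControlB and 114 and 120 reads with nApoE3. With a floor of 3 counts per library, the level was at least 4.76-fold higher with nApoE4 than in ControlA, and the ratio of mean CPM with nApoE3 was 17.8. The gene passed the filter on low counts only through the treated groups, where it is high. When every gene with at least 1 count was tested instead, adjusted p was 6.72e-06 with nApoE4 and 1.13e-15 with nApoE3 (edgeR). With 0 reads in ControlA, the gene again entered the nApoE4 test only through the treated samples, so that p-value adds no separate support. The difference between fragments was not called (adjusted p = 0.104, edgeR), and the gene dropped out of these 3 tests when 10 counts were required in every sample. Rpl39, the widely used copy, had log2 values of 0.0081 ± 0.13 with nApoE4 and 0.038 ± 0.034 with nApoE3, neither called.

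Rpl39l lies at chr16:10170226-10174911 on the plus strand (GRCm38), and Atf7ip2, on the same strand, begins 17800 bases beyond it. Atf7ip2 was looked at after the values of Rpl39l were seen. It had 536, 496 and 623 reads in ControlA and 756, 814 and 745 with nApoE4. It had 1572, 1379 and 1319 reads in ControlB and 4746 and 4591 with nApoE3. The log2 fold changes of Atf7ip2 were 0.60 and 1.84, and it was called higher with each fragment. Of all genes tested, 28.6% were higher with nApoE4 and 33.1% with nApoE3. Whether the changes of Rpl39l and Atf7ip2 are linked was not tested.

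**Figure D4:**
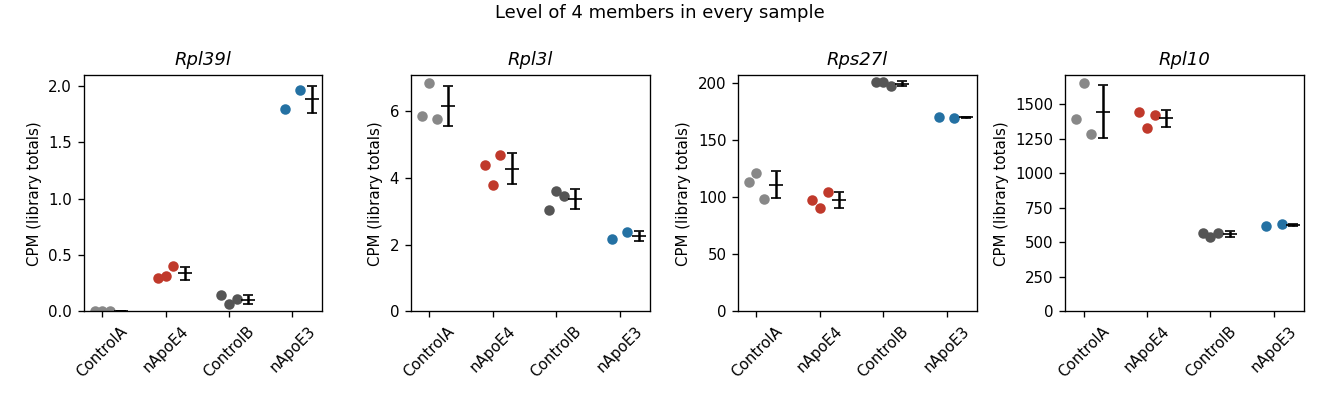
CPM of the library total (y axes, from 0) of Rpl39l, Rpl3l, Rps27l and Rpl10 in every sample, with the group mean ± SD in black. Rpl39l is at 0 in ControlA and highest with nApoE3, and Rpl3l is lower with each fragment than in its own controls.

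Besides Rpl3l, the members called lower with nApoE3 were Rps27l, Rps21 and Rps14. Rps27l, a p53-responsive relative of Rps27, stood at 200, 201 and 197 CPM in ControlB and 170 and 170 CPM with nApoE3 (log2 -0.098 ± 0.023). Rps21 stood at 414, 414 and 428 CPM and at 368.9 and 349.1 CPM (-0.090 ± 0.029). Rps14 stood at 1185, 1160 and 1146 CPM and at 1017 and 986 CPM (-0.085 ± 0.021). No group overlapped its controls in these 3 small subunit genes, as was so for 11493 of all 14817 genes tested on the TMM scale. With library totals, the scale of the CPM given here, the log2 values of the 3 were -0.23, -0.22 and -0.22. Rps27 stood at 257, 253 and 273 CPM in ControlB and 272 and 271 CPM with nApoE3, which overlapped on this scale, and was called higher with TMM scaling (log2 0.19 ± 0.031).

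The responses to the fragments were compared in a fit over all 11 samples. No member differed at an adjusted p under 0.05, whereas 14.4% of all 15287 genes were higher and 13.9% lower with nApoE4 relative to nApoE3, and 5.93% passed with over 2-fold. At an unadjusted p under 0.05, 1 member (Rpl39l) was found by edgeR and 0 by DESeq2, which also called 0. The median difference was -0.091 for the large and -0.098 for the small subunit. It turned to 0.037 and 0.033 without ControlA replicate 2, and without ControlA replicate 3 it was -0.19 and -0.18. In the latter fit 8 members were called lower, beside 30.3% of all 15450 genes called in either direction.

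The control cells of the 2 experiments differed in most members. Of 77 members tested, 4 were higher and 62 lower in ControlB than in ControlA, beside 34.4% and 34.9% of all 14249 genes, and 17.9% of all genes passed with over 2-fold. The median log2 difference was -0.70 for the large and -0.65 for the small subunit, beside -0.0096 for all genes. Without ControlA replicate 2 the medians were -0.57 and -0.53. Experiment, library preparation and culture cannot be told apart here.

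The members did not shift by one common amount. Rpl29 was lowest, at 400, 434 and 333 CPM in ControlA and 101, 99.5 and 106 CPM in ControlB (log2 -1.89 ± 0.11). Rps29 stood at 1048, 1250 and 997 CPM against 386, 370 and 408 CPM (-1.46 ± 0.10). Rps10, at 0.90 to 3.08 CPM in these controls, Rpl10 and Rpl27a followed at -1.36, -1.33 and -1.31. The 4 higher members were all of the small subunit: Rps27l at 0.89 ± 0.089, Rps28 at 0.69 ± 0.26 and about 1 CPM or less, Rps14 at 0.54 ± 0.12 and Rps21 at 0.23 ± 0.075. Rpl22, an RNA-binding protein of the large subunit, stood at 396, 430 and 352 CPM against 393, 370 and 399 CPM and was not called. When libraries were scaled to the summed members, a choice made after seeing the data, 24 members were higher and 35 lower. On that scale 70.9% of all genes were called.

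**Figure D5:**
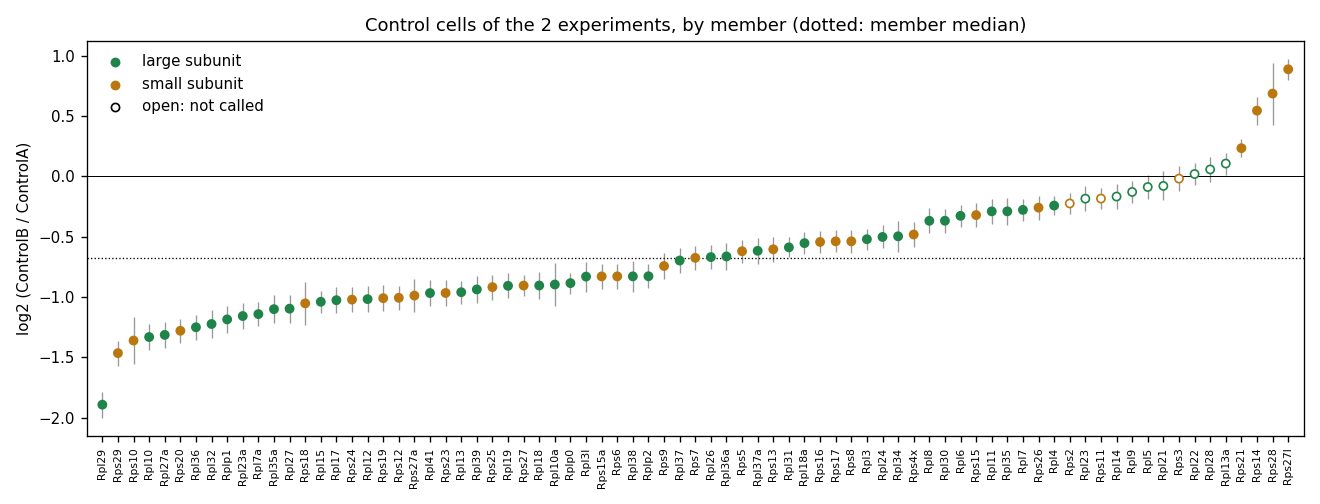
Log2 ratio of ControlB to ControlA (y axis, ± SE) for the 77 tested members in order, with large subunit genes in green and small subunit genes in orange; open points were not called. Values run from -1.89 for Rpl29 to 0.89 for Rps27l around a dotted member median of -0.68.

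Ribosomal protein genes and their relatives that the rule leaves out were counted in the same way. Their list also held Rps19bp1, which is not itself a ribosomal protein gene. Of all genes tested, 57.2% were called with nApoE4 and 67.7% with nApoE3, or 58.4% and 70% with library totals. Of 10 tested, 0 were called with nApoE4 and 8 were higher with nApoE3 (edgeR), but with library totals 1 was lower with nApoE4, and 1 was higher and 2 lower with nApoE3. Rpsa, a small subunit protein, had log2 values of 0.0021 and 0.13, and Rack1, a scaffold on the small subunit, 0.080 and 0.13. Fau and Rack1 were lower in ControlB than in ControlA, at log2 values of -1.51 and -1.41, whereas Rpl7l1 was higher at 0.92. The mitochondrial ribosomal proteins, a separate family for the ribosome of mitochondria, had 6 higher and 17 lower of 74 with nApoE4 (4 and 30 with library totals). With nApoE3 they had 16 higher and 29 lower of 75 (8 and 49 with library totals), with a median of -0.037. With nApoE3 60% of this family was called, against 67.7% of all genes. In ControlB against ControlA, 37 were higher and 14 lower, with a median of 0.23.

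Most ribosome assembly factors were higher with nApoE3. The counts of this and the following lists are to be read against all genes tested, of which 28.6% were higher and 28.6% lower with nApoE4 and 33.1% and 34.6% with nApoE3, or 57.2% and 67.7% in either direction. With nApoE4 30 of 69 were higher and 11 lower, and with nApoE3 54 were higher and 4 lower, with medians of 0.12 and 0.30. In either direction 59.4% and 84.1% of the list were called. With library totals the counts were 25 and 15, and 46 and 14. Of all genes tested, 58.4% and 70% were called with library totals. Rrs1, needed for the 5S particle, rose by 1.02 and 0.70 on the log2 scale, and the kinase Riok3 by 1.01 and 1.20. Rrp1b fell, at -0.67 and -0.27. In the RNA polymerase I list 2 of 19 were higher and 6 lower with nApoE4, and 11 and 5 with nApoE3, which became 1 and 8, and 5 and 7, with library totals. Its initiation factor Rrn3 rose by 0.18 and 0.48, while Ubtf, which opens ribosomal DNA, had values of -0.52 and -0.65 and was lower with both.

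Other genes with TOP mRNAs, mostly translation elongation and initiation factors, had 5 higher and 1 lower of 25 with nApoE4 and 24 higher and 1 lower with nApoE3, with medians of 0.10 and 0.16. With library totals they had 4 higher and 2 lower, and 11 higher and 5 lower. In the mTORC1 list 8 of 30 were higher and 7 lower with nApoE4, and 13 and 11 of 29 with nApoE3, which became 6 and 10, and 6 and 16, with library totals. Larp1 rose by 0.53 and 0.38, and Sesn2, an inhibitor of mTORC1, by 1.21 and 0.24. Deptor, another inhibitor, was lower at -1.59 and -1.80. In the Myc network 3 of 11 were higher and 6 lower with nApoE4, and 6 and 6 of 12 with nApoE3. Myc, a driver of ribosome production, rose by 3.63 and 3.51, and its antagonist Mnt was lower at -2.46 and -1.34.

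Among genes of ribosome storage and rescue, 7 of 18 were higher and 2 lower with nApoE4 and 9 and 4 with nApoE3, the latter 4 and 9 with library totals. The shares called, 50% and 72.2%, lie near those of all genes. Ascc3, which takes apart collided ribosomes, rose by 0.43 and 0.74. Of 11 genes on the path from free ribosomal proteins to p53, 5 were higher and 0 lower with nApoE4 and 9 and 1 with nApoE3, against 5 and 2, and 5 and 3, with library totals. Mdm2, the p53 ligase that free Rpl5 and Rpl11 bind, rose by 1.59 and 2.08, and Cdkn1a, a p53 target, by 1.97 and 1.99. Rpl5 and Rpl11 themselves were not called with nApoE4. With nApoE3 Rpl5 was called higher (0.075, but -0.056 and called lower with library totals), and Rpl11 was not called (-0.11 and called lower with library totals). Of 2 ribosomal protein pseudogene rows, Rpl34-ps1 was tested and was not called with either fragment.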

How the data were processed

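RNA-seq libraries from 11 samples of BV2 cells were analysed. Per the labels, the authors trimmed reads with Trim Galore 0.5.0, checked them with FastQC 0.11.8, aligned them to GRCm38.p6 with HISAT2 2.1.0 and counted them with HTSeq 0.11.0; the strand setting is not given in the sources used here. The deposited values are raw counts per gene, 1 table a sample, with 5 tally rows that were left out of library sizes. Because reads with several alignments were not counted, members with near-identical copies may be undercounted.

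Genes passing filterByExpr were fitted with edgeR 4.0.16 (TMM, quasi-likelihood test, Benjamini-Hochberg, threshold 0.05) in R 4.3.3, each fragment against its own controls, ControlB against ControlA, and the difference between fragments over all 11 samples. SE is the log2 fold change divided by the root of F. CPM were computed from library totals, and gene lengths came from GENCODE M21. DESeq2 1.42.0, other scalings and filters, a replicate block and leaving out each sample were alternatives. The fits were tested on simulated data. A first limit on the share of changed genes recovered was missed for the difference between fragments, and the limits were then confined to larger changes of well-counted genes. Power was low for genes with few counts, and false calls exceeded the nominal rate in some comparisons. The library-total counts of the other gene lists were added after seeing the data. Members and lists were chosen with earlier results of these data known. Named members were those with close relatives, the 5 largest called changes in each direction with at least 1 CPM in a group, the 5 highest per exon length and the stalk genes, members not tested somewhere, and up to 3 genes in each direction of each other list. Intervals are not given, and a floor of 3 counts covers counting error only.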

Additional observations from a re-analysis of the deposited data

Results flagged for a closer look

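Among the genes named from the other lists, together with Atf7ip2, 26 differed between the fragments by the test of the difference itself (edgeR over all 11 samples, adjusted p under 0.05). They were named for their large changes, and 28.3% of all genes tested differed. No member of the rule was called in this test, although 8 were without ControlA replicate 3, where 30.3% of all genes were called. Values are the log2 change with nApoE4 minus that with nApoE3, and the fragments were run in separate experiments.

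In the Myc network the difference was -2.23 for Mxd1, which was lower with nApoE4 and higher with nApoE3. It was -1.13 for Mnt and 0.54 for Mxd4. Among mTORC1 regulators it was 1.21 for Sesn1, 0.96 for Sesn2, 0.42 for Rragd and -0.27 for Eif4e. Among RNA polymerase I genes it was -0.77 for Cd3eap, -0.31 for Rrn3, -0.29 for Polr2e and 0.37 for Taf1b.

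Among assembly factors it was -0.65 for Nop10, which fell with nApoE4 and rose with nApoE3, -0.40 for Rrp1b, -0.40 for Rrp9, -0.38 for Imp3 and 0.31 for Rrs1. Among rescue and storage genes it was -0.32 for Ascc3, 0.33 for Zak, 0.30 for Habp4, 0.28 for Hbs1l and 0.22 for Usp21. On the p53 path it was -0.50 for Mdm2 and 0.46 for Mdm4. It was -0.89 for Vim, which was lower with nApoE4 and higher with nApoE3. It was -0.28 for Rpl7l1, a relative of Rpl7 outside the rule, and -1.25 for Atf7ip2, which lies near Rpl39l.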

How the results depend on the processing

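With nApoE4, 0 members were higher when 10 counts were required in every sample, 2 were lower with library totals, and the large and small subunit medians were then -0.080 and -0.060. With the replicate block 0 were lower with nApoE4. Of all genes tested, 57.7%, 58.4% and 49.4% were called in these fits, in that order. Leaving out each sample gave 1 to 18 higher, 0 to 1 lower, and medians from -0.092 to 0.13 and from -0.065 to 0.15. Between 49.2% and 60.6% of all genes were called in those fits. With nApoE3, library totals gave 10 higher and 34 lower with medians of -0.046 and -0.063, and upper-quartile factors 9 lower with medians of 0.046 and 0.029. All 11 samples in a single fit gave 5 higher and 1 lower. Of all genes tested, 70% were called with library totals, 68% with upper-quartile factors and 54.5% in the single fit. Scaling to the summed members, chosen after seeing the data, gave 16 higher and 17 lower with medians of 0.0026 and -0.014. With it 66.2% of all genes were called. Leaving out each sample gave 31 to 48 higher and 2 to 10 lower. With library totals the log2 value turned to -0.094 for Rpl39, -0.028 for Rpl3, -0.091 for Rps29, -0.00058 for Rpl27a, -0.013 for Rpl19, -0.081 for Rpl8, -0.024 for Rplp1 and -0.022 for Rplp2, and scaled to the members it was -0.033 for Rpl8. For the difference between fragments, leaving out each sample gave 0 to 8 lower and medians from -0.19 to 0.037 and from -0.18 to 0.033. In ControlB against ControlA, upper-quartile factors gave 2 higher with medians of -0.80 and -0.75. Scaling to the summed members gave 24 higher and 35 lower with medians of -0.097 and -0.048. Of all genes, 69.8% and 70.9% were called under these scalings. Scaled to the summed members, values turned to 0.077 for Rpl3, 0.12 for Rps4x, 0.32 for Rpl7, 0.097 for Rpl24 and 0.23 for Rpl8. Leaving out each sample gave 2 to 6 higher, 55 to 67 lower, and medians from -0.79 to -0.57 and from -0.74 to -0.53. Between 62.1% and 74.5% of all genes were called in those fits. The scalings differ by construction; the cause of the other changes was not tested.

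Within each experiment, correlations between the deviations of same-numbered samples ran from -0.10 to -0.0027 across genes and from -0.45 to -0.073 across members. Between ControlA and ControlB they ran from -0.28 to 0.61 across members. Whether same-numbered samples were pairs is not stated, and these correlations cannot decide it. With the replicate block 53 members were higher and 5 lower with nApoE3, beside 66% of all genes called in either direction. Precision is limited for Rpl39l, with 0 to 120 reads, and for nApoE3, with 2 samples.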
